A study of Mus musculus with 6 samples.

Results

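Genes for small nucleolar RNAs (snoRNAs) were followed through the lists of genomic regions bound by Spt16, Oct4 and Jmjd1c. A member was any Ensembl gene listed beside a region whose symbol starts with SNOR or Snor, or is exactly U3 or U8, and each identifier was taken as 1 gene copy. By this rule 113 copies with 81 distinct symbols were found among 3403 listed genes. The members were thus chosen by the authors' region calls, which rest on ChIP and input reads, and by the listing beside a region, so the counts below describe the lists and are not a test of them. The C/D box class held 62 copies and the H/ACA box class 51, with lengths of 60 to 214 bp. Whether a copy is transcribed in these cells was not measured.

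snoRNAs are short nuclear RNAs that work with a fixed set of proteins in the nucleolus. C/D box snoRNAs guide 2′-O-methylation of ribosomal RNA, and H/ACA box snoRNAs guide the conversion of uridine to pseudouridine. In mammals most are cut out of introns of host genes, many of which encode ribosomal proteins or translation factors or make a spliced RNA with no known protein, while U3 and U8 have promoters of their own and act in the cutting of the ribosomal RNA precursor. Spt16 is a subunit of FACT, a histone chaperone that helps RNA polymerase pass nucleosomes, Oct4 is the POU factor that maintains pluripotency, and Jmjd1c is a JmjC-domain protein of the histone demethylase family.

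The libraries came from C57BL/6 mouse embryonic stem cells with a tet-ON Oct4 gene, which all groups share, that had been differentiated with retinoic acid. The groups used here were Spt16 ChIP, Oct4 ChIP and Jmjd1c ChIP at 10 h, each set against the input chromatin of 10 h, and the file headers give 10 h of doxycycline, the inducer of Oct4, for all of them. The sources used here give neither the promoter of the tet-ON gene nor the number of clones. Each group was 1 library, so no value has a replicate error, and every interval covers counting error only. Library totals were 36669596 reads for Spt16, 15543450 for Oct4, 26736842 for Jmjd1c and 14592994 for input. The lists held 1253 Spt16, 265 Oct4 and 24 Jmjd1c regions, called by the authors against the same input library, so errors in that library are shared by all lists.

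The copies were almost all in the Spt16 list, but so were most listed genes of any kind, 3203 of 3403. The Spt16 list named 112 copies at 79 regions, which was 3.50% of its 3203 listed genes. In the Oct4 list there were 6 copies at 6 regions, or 0.948% of 633 listed genes. No copy was listed for Jmjd1c among 65 genes, a count that allows a share of up to 4.62%. Of the 113 copies, 107 were listed for Spt16 only, 5 for both Spt16 and Oct4, and 1 for Oct4 only. The copies share regions, so they are not independent: 30 Spt16 regions listed more than 1 copy, up to the 9 copies inside Gas5, and 38 copies were listed at more than 1 region. No copy was listed at a distance above 48731 bp, and genes outside the listed neighborhoods were not analysed here.

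snoRNA copies lay closer to their Spt16 regions than listed genes did as a whole. Measured between a gene's start and its region's middle, the distance had a median of 4847 bp over the 167 copy-region pairs, with a range of 26 to 48731 bp, against 27222.5 bp over all listed pairs, the snoRNA pairs included. A region middle lay within 5 kb of the start for 65 of the 112 Spt16 copies (58.0%), beside 16.8% of all genes listed for Spt16. In the Oct4 list 3 of the 6 copies were within 5 kb, beside 9.79% of all its listed genes. The 2 box classes differed in this respect, with 51 of 62 C/D box copies and 14 of 51 H/ACA box copies within 5 kb of a region of either list.

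The setting of a copy went with its distance. A gene listed for the same region and spanning the copy, on either strand, was found for 87 of the 113 copies, beside 14.2% of the other listed genes, which are longer. Such a gene on the same strand, taken here as the host, was found for 71 copies outside the U3 and U8 group, and 56 of these were within 5 kb of a region, with a median nearest distance of 2227 bp. The 11 copies with a spanning gene only on the opposite strand had a median of 29019 bp, and 1 of them was within 5 kb. The 21 copies with no listed host had a median of 25856 bp, and 2 were within 5 kb. For the 10 copies of U3 and U8 the median was 2853 bp, and 6 were within 5 kb. Of the same-strand hosted copies, 44 of 49 C/D box copies and 12 of 22 H/ACA box copies were near, so both classes held near and distant copies there. A host not listed for the region cannot be seen in these tables.

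**Figure D1:**
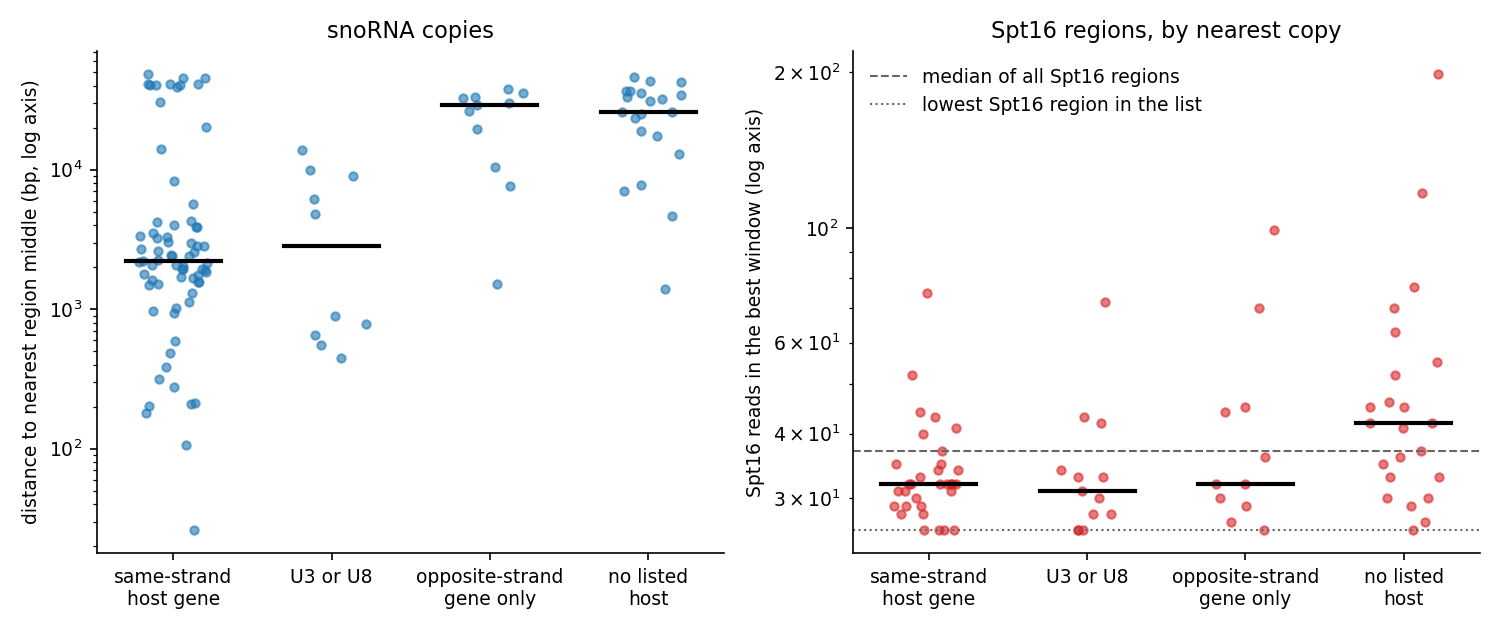
Left, distance in bp (log axis) from each of the 113 snoRNA copies to the middle of its nearest region in the Spt16 or Oct4 list, by setting of the copy. Right, Spt16 reads in the best window (log axis) of each of the 79 Spt16 regions, by setting of the nearest copy, with the list's median (37 reads, dashed) and lowest value (26 reads, dotted). Points are copies or regions, horizontal bars are medians. Copies in a same-strand host and U3 or U8 sat nearest to regions, and the regions beside copies with no listed host had the most reads.

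Counted over pairs, near Spt16 regions lay after the copies more often than before them in the whole list. In its higher-scoring part they did not. Of the 84 Spt16 pairs within 5 kb, the region middle lay after the snoRNA start, in the direction of transcription, in 66 (78.6%), beside 59% of all 653 listed pairs at that distance. Over all distances the share was 59.9% for the copies and 59.3% for all listed pairs. In the higher-scoring part of the list, cut at its median score, the region lay after the start in 13 of 26 near pairs (50%). At all distances it was 43.4% of 53 pairs. Copies in 1 host share regions, so pairs are not independent, and most of these 26 came from Gas5. Its 9 copies were each paired with the same 2 regions. At 1 of these the region lay after all 9 copy starts, and at the other after 1 of them. The Gas5 pairs thus did not lower the share. Of the 3 near Oct4 pairs, 2 had the region after the start, beside 41.9% of 62.

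This placement was followed through the host genes. The 71 hosted copies lay in 26 host genes, of which 20 were up to 20 kb long. Of these 20, 16 had at least 1 Spt16 region between 5 kb before the start and 5 kb past the end of the host, and they held 57 copies, 56 of them the near copies counted above. The other copy, Snord2 of Eif4a2, was 5697 bp from its region. In 12 of the 16 host genes (75%, 95% Clopper-Pearson interval 47.6 to 92.7%) a Spt16 region had its middle up to 2 kb past the annotated 3′ end. Among all 446 listed genes of up to 20 kb with a region that near, the snoRNA hosts included and the snoRNA genes themselves left out, the share was 31.4% (27.1 to 35.9%). Median lengths were close, at 3532.5 bp for the hosts and 2900 bp for all. A region inside the gene was present in 4 of 16 hosts (25%) and in 28.5% of all, and one before the start in 2 of 16 hosts (12.5%) and in 34.3% of all. The 2 kb limit was chosen after the data were seen. With a limit of 1 kb the shares were 37.5% of hosts and 20.6% of all genes, and with 5 kb 75% of hosts and 48.7% of all genes. Among regions of the higher-scoring part, 1 of only 3 hosts (33.3%) had such a region.

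**Figure D2:**
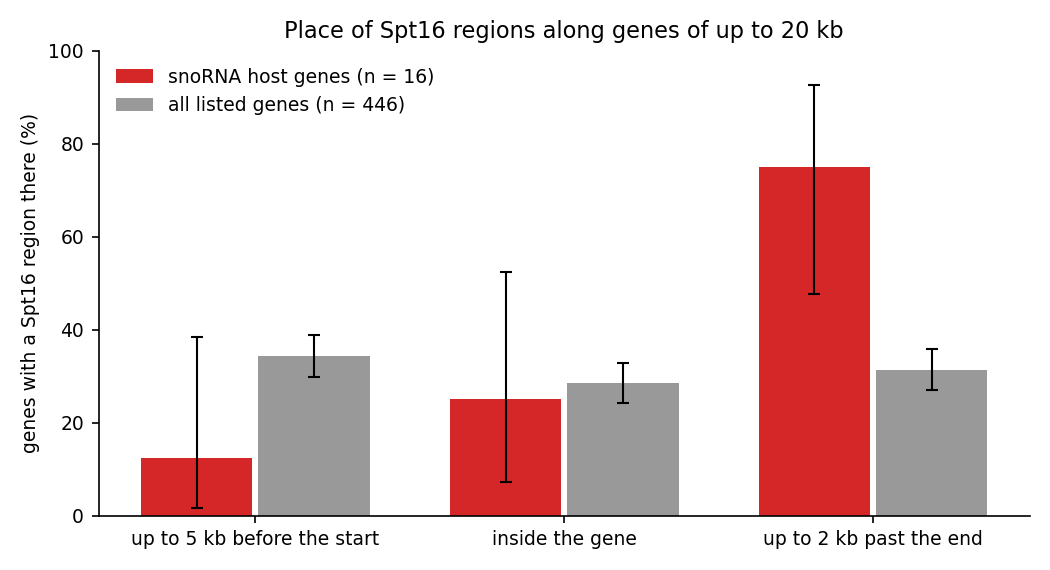
Share in percent of genes of up to 20 kb near a Spt16 region that had a region middle before the start, inside, or up to 2 kb past the end, for 16 snoRNA host genes (red) and all 446 listed genes (grey). Error bars are 95% Clopper-Pearson intervals over genes. Past the end the shares were 75% and 31.4%.

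The 12 regions past host ends were alike in read counts. Their middles lay 222.5 to 1992.5 bp past the end, with a median of 912.75 bp. They had 26 to 35 Spt16 reads (median 30.5), or 0.709 to 0.954 RPM (reads scaled to 1000000 library reads), and 0 input reads each. Against a floor of 3 input reads per library (0.206 RPM) this is at least 3.45 to 4.64-fold, as a lower bound for each region. The start of another listed gene, with the 113 copies left out, lay within 1 kb of 3 of the regions, among them Cd68 at 246 bp for Eif4a1 and 4930443B20Rik at 277 bp for 2410006H16Rik. For the other 9 no such start lay within 1 kb, but not all of them lay clear of other genes. The regions of Eif4a2, Nop56 and Rpl23a overlapped Rfc4, Idh3b and Tlcd1, and that of Eif4a1 overlapped Cd68. Only the other gene with the nearest start was looked at for overlap. Whether the neighboring genes or their starts had a part in these regions was not tested. None overlapped an Oct4 or Jmjd1c region. Scaled to the Oct4 total their reads would be 11.02 to 14.8, under the lowest value in the Oct4 list, 15 reads. These are scaled counts, and counting error could bring some to 15 reads. Whether depth had a part in their absence from the Oct4 list was not tested.

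**Figure D3:**
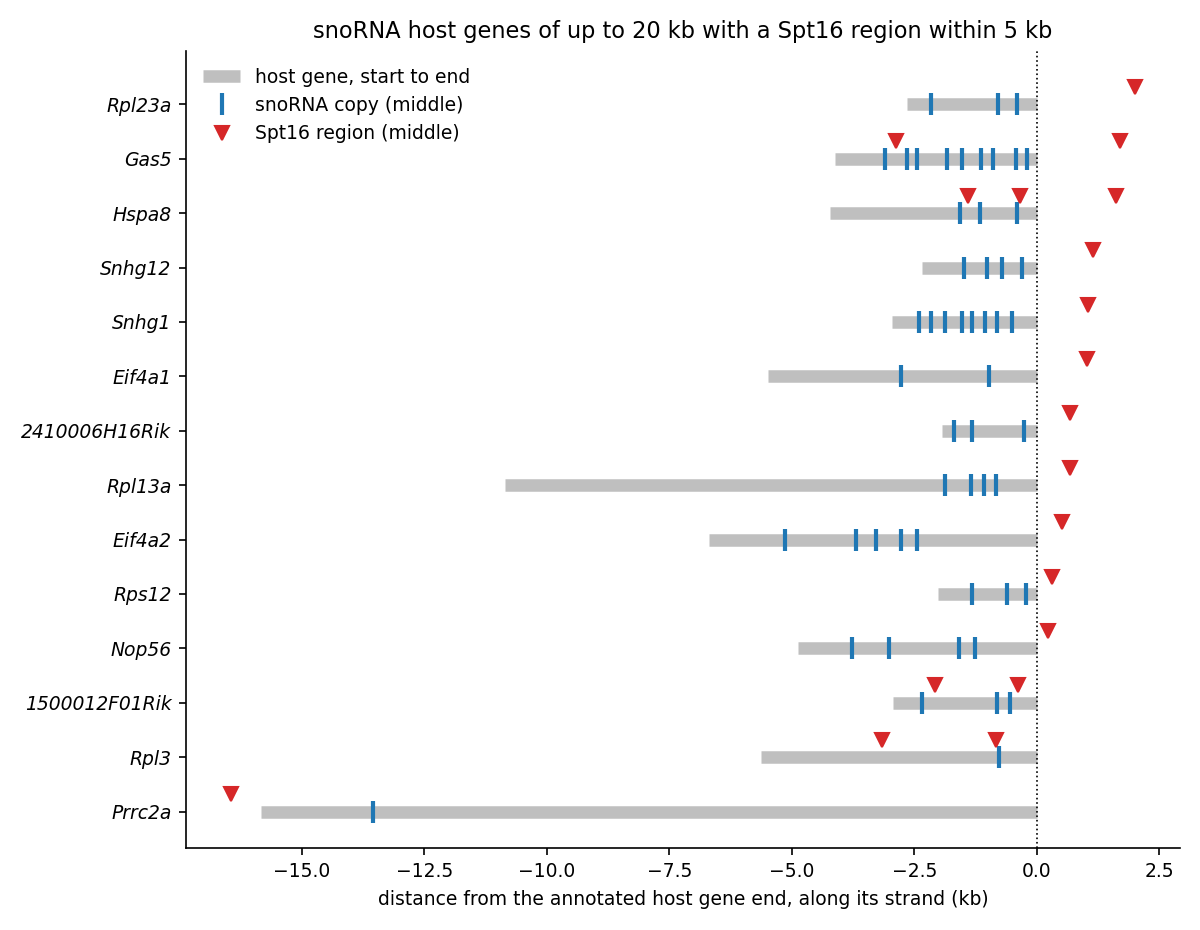
The 14 snoRNA host genes drawn of the 16 of up to 20 kb with a near Spt16 region, aligned at the annotated gene end (0, dotted line), with distance along the strand in kb. Grey bars are host genes, blue ticks snoRNA copies, red triangles middles of Spt16 regions. In the 11 upper genes a region sits 222.5 to 1992.5 bp past the end.

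Among the hosts that make a spliced RNA with no known protein, Gas5, Snhg1, Snhg12, 2410006H16Rik and 1500012F01Rik had Spt16 regions. Gas5, named for its rise in growth-arrested cells, carries 9 C/D box copies, SNORD24, SNORD44, SNORD74, SNORD75, SNORD77, SNORD78, SNORD79, SNORD81 and Snord47 (mm9 chr1:162964552-162968669, plus strand). Its first region (chr1:162965655-162965944) was inside the gene with 40 Spt16 reads and 0 input reads, 181 bp from the start of SNORD75 and 275 bp from SNORD74. Its other region (chr1:162970178-162970564) had 35 and 0 reads, 1702 bp past the gene end and 1933 bp from SNORD81, the nearest copy. Gas5 was thus marked both inside the snoRNA stretch and past it.

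Snhg1 holds 8 C/D box copies, SNORD25 to SNORD31 and Snord22 (chr19:8797985-8800931, plus strand). Its only region had 32 Spt16 reads and 0 input reads and lay 1050.5 bp past the end, 1626 bp from Snord22 and 3496 bp from SNORD25. Snhg12 (chr4:131864592-131866938, plus strand), which holds Snora16a, Snora44, Snora61 and Snord99, had 28 and 0 reads in a region 1144 bp past its end. Snord99 was the nearest copy there at 1477 bp, and Snora16a the farthest at 2703 bp. The neighboring host Snhg3, with Snora73a and Snora73b, had no region within 5 kb.

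The host 2410006H16Rik, with Snord49a, Snord49b and Snord65, had a region of 32 Spt16 reads and 0 input reads 682 bp past its end and 974 bp from Snord65. In 1500012F01Rik, which RefSeq names Zfas1 and which holds 3 copies of the SNORD12 family, both regions were inside the gene. The first had 37 Spt16 reads and 1 input read, 317 bp from a SNORD12 copy. The second had 31 and 0 reads, inside the gene near its end and 208 bp past the start of Snord12.

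Of the hosts that encode ribosomal proteins, Rps12, Rpl23a and Rpl13a had a region past the end. Rps12, a small-subunit protein gene, holds SNORD101, Snord100 and Snora33, and its region (chr10:23504564-23504816) had 32 Spt16 reads and 0 input reads, 299 bp past the end and 590 bp from Snora33. Rpl23a, a large-subunit protein gene with Snord4a, Snord42a and Snord42b, had 26 and 0 reads 1992.5 bp past its end, the farthest of the 12, and 2424 bp from Snord42a. Rpl13a, also a large-subunit protein gene, holds Snord32a, Snord33, Snord34 and Snord35a. Its region of 26 and 0 reads (chr7:52380149-52380347) was 679 bp past the end and 1556 bp from Snord35a, the nearest copy, and the other copies were 1791 to 2585 bp away. Rpl3 was different: its region of 32 and 0 reads (chr15:79908921-79909172) lay over Snord83b, 26 bp from the start of the copy and the shortest distance of all pairs, and another of 31 and 0 reads was 2347 bp before that copy and 595 bp from snoU83B, a snoRNA gene whose symbol the rule leaves out.

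Nop56, Eif4a1, Eif4a2 and Hspa8, which encode other proteins, each had a region past the end. Nop56, itself a core protein of C/D box snoRNPs, holds Snord57, SNORD56, SNORA51 and Snord110. Its region (chr2:130105089-130105452) had 29 Spt16 reads and 0 input reads, 222.5 bp past the end, the nearest of the 12, and 1519 bp from Snord57. Eif4a1, an RNA helicase of translation initiation with SNORA48 and SNORA67, had 31 and 0 reads 1028.5 bp past its end, 2069 bp from SNORA67. Its relative Eif4a2, with SNORA4, 2 copies of SNORA63, Snora81 and Snord2, had 29 and 0 reads 514 bp past its end and 3033 bp from SNORA4. Hspa8, the constitutive Hsc70 chaperone gene with Snord14c, Snord14d and Snord14e, was the only host with 3 Spt16 regions within 5 kb. Those inside had 43 Spt16 reads and 1 input read, 201 bp from Snord14c and 211 bp from Snord14d, and 26 and 0 reads, 106 bp from Snord14e. The region past its end had 30 and 0 reads at 1617.5 bp.

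The remaining hosts with a near region had it at the start or deep inside. Prrc2a, which holds SNORA38, had 34 Spt16 reads and 0 input reads 617 bp before its start, 395 bp from Gm17705. Among hosts over 20 kb, N4bp2 (SNORA73) had 41 and 0 reads 621 bp before its start, and the copy was 14114 bp away. Stxbp5, Ptprb and Lpp each hold 1 H/ACA box copy, and their inside regions lay 48731, 30683 and 8348 bp from it. No Spt16 region lay within 5 kb of Eef1b2, Ncl, Snhg3, Gm15832, Rnf149 or St3gal2, whose copies were 20309 bp or more from a region. St3gal2 was the only host with a near Oct4 region, inside the gene and 38935 bp from SNORA57.

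For the starts of the host genes, RefSeq sequence was used, because genes of the translation machinery are known for a run of pyrimidines at their transcription start, the terminal oligopyrimidine tract. Start sequences were matched for 11 of the 16 near hosts, not for 5 others, among them Rpl3, Rpl23a and Hspa8. A run of 7 or more C or T bases on the gene strand touching the 20 bases on either side of the start was present in 5 of 11 (45.5%), beside 33.7% of 27025 genes in the RefSeq table. With 11 genes this is a description only. A Spt16 region past the end was present in 5 of these 5 hosts and in 4 of the 6 matched hosts without a run, 9 of 11 in all. The 5 starts with a run are shown so that the run can be read in place. Each window runs from 40 bases before to 20 bases after the RefSeq start, 5′ to 3′ on the gene strand, with the run in capitals (RefSeq, GRCm38.p6). They are Rps12 (chr10:23787190-23787249, minus), Rpl13a (chr7:45128726-45128785, minus), Snhg12 (chr4:132308638-132308697, plus), 2410006H16Rik (chr11:62602837-62602896, plus) and Snhg1 (chr19:8723447-8723506, plus).
Rps12: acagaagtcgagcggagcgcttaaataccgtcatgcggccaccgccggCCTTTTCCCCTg
Rpl13a: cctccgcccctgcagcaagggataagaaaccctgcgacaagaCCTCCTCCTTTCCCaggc
Snhg12: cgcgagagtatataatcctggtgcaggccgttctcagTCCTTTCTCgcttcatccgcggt
2410006H16Rik: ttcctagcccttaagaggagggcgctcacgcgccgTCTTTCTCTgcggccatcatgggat
Snhg1: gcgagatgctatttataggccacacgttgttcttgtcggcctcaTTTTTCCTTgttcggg
The run began 3 bases before the start in Snhg12 and 5 bases before it in 2410006H16Rik, and at base 3, 5 and 9 of the transcript in Rpl13a, Snhg1 and Rps12. Gas5, a known RNA of the terminal oligopyrimidine class, had a run of 6 bases from the base before the start:
Gas5: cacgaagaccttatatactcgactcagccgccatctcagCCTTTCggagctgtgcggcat

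U3 and U8, which are transcribed from their own promoters, had Spt16 regions close by at some copies, and 4 of the 10 copies had one just past the gene. Among the 446 listed genes of up to 20 kb near a Spt16 region, 31.4% had one up to 2 kb past the end. The 10 copies are few and not all were near a region, so their count is a description only. U8, listed as Snord118 (chr11:68886928-68887062, plus strand), had a region of 43 Spt16 reads and 2 input reads whose middle lay 309.5 bp past its end, an 8.56-fold ratio of RPM with a counting interval of 2.23 to 72.9. The U3 copy on chromosome 10 had 31 and 0 reads 340 bp past its end. On chromosome 11, 2 U3 copies had regions 565 bp (28 and 0 reads) and 686.5 bp (26 and 0 reads) past their ends. For these 4 copies the regions were thus 309.5 to 686.5 bp past the end. Another U3 copy on chromosome 11, opposite Pecam1, had its region of 42 Spt16 reads and 1 input read 648 bp before the start. The other 5 copies were 4807 to 13764 bp from their nearest region.

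The 4 U3 copies spanned by Tex14 on chromosome 11 were spaced 5390, 13659 and 9082 bp apart in the deposited mm9 tables, and RefSeq gives the same spacings on GRCm38.p6 for Rnu3b1, Rnu3b3, Rnu3b4 and Rnu3b2. Near-identical copies of this kind may share reads, and the sources used here do not say how reads that match several copies were placed, so their values are uncertain. Of the cluster's 5 regions, 2 were the ones just past U3 copies, and the 3 others had a U1 gene as the nearest gene at 260, 698 and 1023 bp. Both regions of the U3 copy on chromosome 13 were nearest to histone genes, Hist1h4i at 980 bp and Hist1h2bk at 491 bp. Starts of other small RNA genes also lay nearest at several regions of distant snoRNA copies, U5 at 552 bp, U6 at 107 bp and U11 at 544 bp. A snoRNA was the nearest listed gene at 37 of the 79 Spt16 regions and at 3 of the 6 Oct4 regions.

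Many of the regions with the most reads were beside H/ACA box copies with no listed host, most of them far off. The strongest, with 199 Spt16 reads, was an exception in distance, at 1400 bp from its SNORA17 copy. Regions beside SNORD46, a hosted C/D box copy (75 reads), and beside U3 (72 reads) were also among the highest. The 79 Spt16 regions had a median of 33 reads (26 to 199) or 0.900 RPM, against 37 reads and 1.01 RPM for all Spt16 regions. By the authors' score, 30 of the 79 were in the higher-scoring part of the list, cut at its median. That held for 17 of 23 regions nearest to a copy with no listed host and 7 of 32 nearest to a same-strand hosted copy. It held for 3 of 11 with an opposite-strand gene only and 3 of 13 nearest to U3 or U8. Ties at the cut were split by list order. With the same score of 48.0, a SNORA17 region fell in the higher part, and a U3 and a SNORA48 region did not. Of the 10 highest-scoring Spt16 regions beside a copy, 5 listed a copy of SNORA17 and 2 a copy of SNORA70, both named for guides of ribosomal RNA pseudouridylation.

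SNORA17 was the most repeated symbol, with 13 copies, 9 of them with no listed host. Its 15 Spt16 regions had 26 to 199 reads with a median of 45. Only 2 copies were within 5 kb of a region and 9 were over 20 kb away, and how many copies of the symbol the annotation holds in all was not analysed here. The highest SNORA17 region with no Oct4 overlap was on chromosome 3, with 99 Spt16 reads and 2 input reads (19.7-fold, 5.31 to 165), 32893 bp from the copy. Regions on chromosomes 12 and 1 had 63 and 1 and 52 and 0 reads, at 46271 and 36654 bp. The other high-scoring regions with no Oct4 overlap were also distant from their copy. SNORA70 on chromosome 16 had 70 Spt16 reads and 0 input reads at 31986 bp, and SNORA65 on chromosome 14 had 70 and 3 reads at 35131 bp. SNORD60, opposite Rab26, was the only copy with an opposite-strand gene alone that had a near region, with 32 and 0 reads at 1521 bp.

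Input reads were few at all these regions. At 57 of the 79 Spt16 regions (72.2%, 60.9 to 81.7%) no input read was counted, beside 68% of all Spt16 regions. In the Oct4 list it was 3 of 6 (50%, 11.8 to 88.2%), beside 72.1% of all Oct4 regions. Enrichment over input chose the regions, so these shares describe the lists.

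Oct4 was listed beside 6 copies, and 5 of their regions were shared with Spt16. The SNORA17 copy on chromosome 17 had the strongest, with 199 Spt16 reads and 2 input reads (39.6-fold, 10.8 to 329) and 50 Oct4 reads and 3 input reads (15.6-fold, 5.06 to 78.4). That region (Spt16 chr17:48755499-48755995, Oct4 chr17:48755584-48755930) had rank 5 in the Spt16 list and rank 4 in the Oct4 list, and lay 1400 bp (Spt16) and 1390 bp (Oct4) before the copy, which was its nearest listed gene. In each library this region stood far above input, though enrichment over input was required for listing.

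The other shared regions were lower in both libraries. SNORA70 on chromosome 6 had 117 Spt16 reads with 5 input reads and 40 Oct4 reads with 3 input reads, but its region lay 294 bp (Spt16) and 357 bp (Oct4) from the start of Vamp1 and 42920 and 42983 bp from the copy. SNORA17 on chromosome 16 had 77 Spt16 and 31 Oct4 reads with 1 input read in each window, at 25151 and 25156 bp. The U3 copy on chromosome 7 (Spt16 chr7:71101938-71102348, Oct4 chr7:71102035-71102318) had 72 Spt16 and 26 Oct4 reads and no input read, 4840 and 4807 bp after its start, and was the nearest listed gene. SNORA17 on chromosome 4 had 45 Spt16 and 17 Oct4 reads and no input read, 4657 and 4648 bp after its start, with Gm12510 nearer. SNORA57 on chromosome 8, in the Oct4 list alone, had 16 Oct4 reads and 0 input reads, at least 5.01-fold. Only 3 of these 6 copies, SNORA17 on chromosomes 17 and 4 and U3 on chromosome 7, were within 5 kb of the Oct4 region.

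**Figure D4:**
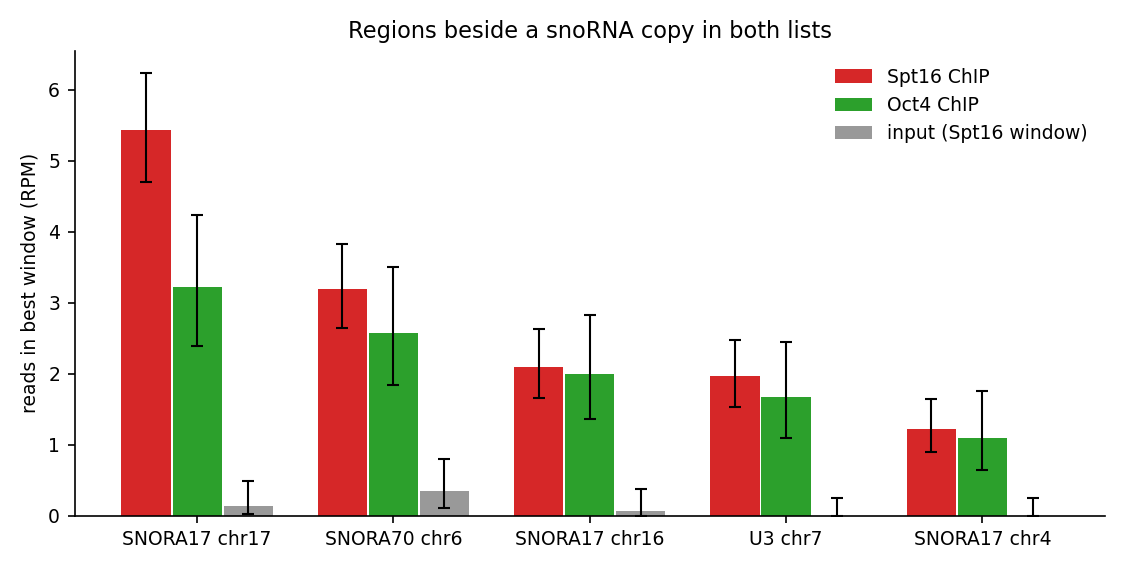
RPM in the best window of the 5 regions beside a snoRNA copy that were in both lists, for Spt16 ChIP (red), Oct4 ChIP (green) and input in the Spt16 window (grey), 1 library each. Error bars are exact 95% Poisson counting intervals. Each ChIP library was counted in its own best window. Both were above input at each region, but enrichment over this input was required for listing. The Spt16 and Oct4 intervals overlapped at 4 of the 5.

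The share of regions in both lists was 5 of 6 (83.3%, 35.9 to 99.6%) among the Oct4 regions beside a copy, against 63.4% of all Oct4 regions overlapping a Spt16 region by at least 1 bp. Among the Spt16 regions beside a copy it was 5 of 79 (6.33%, 2.09 to 14.2%), against 13.4% of all Spt16 regions, so the interval includes the share of the whole list. None of the 79 overlapped a Jmjd1c region, beside 1.12% of all Spt16 regions, and none of the 6 Oct4 regions did, beside 4.91% of all Oct4 regions. The shared regions all lay beside copies with no listed host or beside U3, and 0 of the 32 regions nearest to a same-strand hosted copy was shared. After scaling to the Oct4 total, 25 of those 32 had fewer reads than the lowest Oct4 region. Counting error could bring some up to that value, and whether depth had a part in the lack of shared regions was not tested.

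At the shared regions Spt16 over Oct4 RPM came to 1.69 at SNORA17 on chromosome 17 (counting interval 1.23 to 2.35), 1.24 at SNORA70 (0.859 to 1.82), 1.05 at SNORA17 on chromosome 16 (0.686 to 1.65), 1.17 at U3 (0.740 to 1.92) and 1.12 at SNORA17 on chromosome 4 (0.630 to 2.09). Only the first interval left out 1. Each library was counted in its own best window, so the windows compared can differ. At SNORA17 on chromosome 17 the Spt16 and Oct4 regions were 497 and 347 bp wide, and the input gave 2 and 3 reads. The median was 1.17 over these 5 and 1.14 over all 168 shared regions. Different antibodies were used, so a ratio of 1 does not mean equal occupancy.

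The other genes of the snoRNA pathway were taken from 3 lists. Of 8 core proteins of snoRNPs, 1, Nop56, was listed for Spt16 (12.5%), beside 9.35% of 21896 protein-coding genes. No core protein gene had a region middle within 5 kb of its start, beside 1.3% of protein-coding genes. Of 30 assembly and nucleolar factors 6 were listed (20%), Ruvbl2, Pih1d1, Ncl, Emg1, Nop2 and Xrn2, but only Xrn2, a nuclear exonuclease that trims snoRNA and ribosomal RNA precursors, had its region within 5 kb, 1384 bp before the start with 35 Spt16 reads and 0 input reads. Of 65 known snoRNA host genes 18 were listed (27.7%) and 10 were within 5 kb of the start, but these overlap with the hosts described above and were listed beside the same regions. In the Oct4 list 0 genes of the 3 lists were present, beside 1.97% of protein-coding genes, and in the Jmjd1c list 0, beside 0.183%.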

How the data were processed

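ChIP-seq regions of the 3 ChIP libraries and the 10 h input library were analysed, grouped by antibody and time as titled. Per the submitters' processing notes, CASAVA 1.4 and Bowtie were used, on mm9. The Bowtie version and the region caller are not named in the sources used here. Per the file headers, the authors kept regions whose log2 ratio reached 1 and whose Q value score reached 13, and removed 10 regions found in uninduced cells from the Oct4 list. The deposited counts are reads per strand in the best window of each region, and were summed over strands. The deposited log2 column is the log2 ratio of scaled ChIP to input reads after adding 1 to each, and the counts gave it back. The other deposited columns used, coordinates and gene distances, are in bp as the authors gave them.

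RPM is reads divided by the library total in the file headers and scaled to 1000000. A ratio with 1 or more input reads has an exact 95% binomial interval, and with 0 input reads it is a lower bound against 3 input reads. Shares have Clopper-Pearson intervals. Intervals and floors cover counting error only, and reads without molecular identifiers may be PCR copies of each other. With 1 library per group no test was made. A host is a gene listed for the same region that spans the copy. The rule for named genes took copies in 2 lists, copies within 5 kb of a region and the 10 highest-scoring regions per list. Members and lists were chosen with earlier results of these data known. RefSeq tables (GRCm38.p6) gave names, spacings and start sequences only. Alternatives tried were regions above the median score, other distance limits, other overlap rules and other host limits. Code was tested on simulated data. Python 3.11.15, numpy 2.4.6, pandas 2.3.3, scipy 1.17.1 and matplotlib 3.10.9 were used. Some hosts and copies that this rule takes in are not reported here by name, but are included in the counts.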

Additional observations from a re-analysis of the deposited data

How the results depend on the processing

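Of 57 alternative values for 22 results, 37 stayed within their interval or within 1.5 times the count, and 20 moved. Keeping regions within 20 kb left 3 Oct4 copies. In the higher-scoring part of the lists the Oct4 median distance was 4807 bp, 100% of 5 Oct4 regions were shared with Spt16, 42 Spt16 copies were listed, 43.4% of Spt16 pairs and 50% of those within 5 kb had the region after the start, 56.7% of 30 Spt16 regions had no input read and 16.7% were shared with Oct4. Within 5 kb of the start, 0 core protein, 1 assembly factor and 10 host genes were listed for Spt16, and in the higher-scoring part 0, 3 and 5. Spt16 regions past the end were found, with a 1 kb limit, for 37.5% of hosts and 20.6% of all genes. In the higher-scoring part it was 33.3% of 3 hosts. With a 5 kb limit it was 48.7% of all genes, among genes of up to 10 kb 37.5% and among genes of any length 16%. The settings for host ends and for near pairs were chosen after seeing the data, and the cause of these moves was not tested. Most near pairs of the higher-scoring part came from the 9 copies of Gas5, and these did not lower the 50% share. The regions past host ends had 26 to 35 reads, close to the lowest in the list, so the host result rests on weak regions, and lower occupancy was not detectable at this depth. No paired analysis was possible because each group held 1 library.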
